A study of Mus musculus with 4 samples.

Results

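A set of 9 genes encoding ubiquitin ligases of skeletal muscle was followed in quadriceps RNA of mice lacking the α2-exon of Mef2d. They were Trim63, Trim55, Trim54, Trim32, Fbxo32, Fbxo30, Fbxo40, Cblb and Nedd4, taken from the expression table by gene symbol. All 9 were among the 51826 rows of the table and all 9 passed the filter on low counts, which left 16120 genes to test. MEF2D is a transcription factor of the MEF2 family, and its α2-exon is spliced in mainly in muscle and heart. Quadriceps muscle was taken from 2 wild-type (WT) male mice and 2 male mice with the exon deletion, called Mef2dα2 Eko, which was made with CRISPR-Cas9 on the C57BL6/J background. The deletion is carried by the whole animal and is not limited to muscle, and which founder line gave these mice is not given in the sources used here. All 4 mice were about 20 weeks old, sedentary and on standard chow, and their muscles were collected within 1 hour. Each mouse gave 1 library of polyA-selected RNA, with 72626757 to 85176059 counts per library.

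A ubiquitin ligase, or E3, brings a substrate protein together with a ubiquitin-loaded E2 enzyme, and ubiquitin chains mark the substrate for the proteasome. Trim63, also called MuRF1, and Fbxo32, also called atrogin-1 or MAFbx, are the classical atrogenes, whose transcripts climb when muscle is denervated, unloaded, fasted or exposed to glucocorticoids. FoxO transcription factors switch both on when insulin and IGF1 signalling is low. The other genes act in the same proteolytic system, either on sarcomere proteins or on the signalling proteins that set muscle size.

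The sequence before the transcription start is shown for 3 of the genes because FoxO, glucocorticoid receptor and MEF2 proteins act on muscle genes through such motifs. RefSeq windows on GRCm38.p6 were found for 7 of the 9 genes, as 9 windows, each with 250 bases before and 50 bases after a start. The motifs were searched on both strands: the FoxO core GTAAACA, the short glucocorticoid site TGTTCT, the full glucocorticoid element of AGAACA and TGTTCT 3 bases apart, and the MEF2 motif. The 250 bases before the start of Trim63 lie at chr4:134314870-134315119 on the plus strand, those of Fbxo40 at chr16:36990468-36990717 on the minus strand and those of Trim54 at chr5:31116362-31116611 on the plus strand. Each is written 5′ to 3′ along its gene, with a FoxO or MEF2 match in capitals.
Trim63: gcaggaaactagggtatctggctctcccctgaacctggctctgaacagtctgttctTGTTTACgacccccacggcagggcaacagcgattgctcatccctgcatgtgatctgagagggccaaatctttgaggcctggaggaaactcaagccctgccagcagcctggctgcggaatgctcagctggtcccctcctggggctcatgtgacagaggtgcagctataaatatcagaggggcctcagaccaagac
Fbxo40: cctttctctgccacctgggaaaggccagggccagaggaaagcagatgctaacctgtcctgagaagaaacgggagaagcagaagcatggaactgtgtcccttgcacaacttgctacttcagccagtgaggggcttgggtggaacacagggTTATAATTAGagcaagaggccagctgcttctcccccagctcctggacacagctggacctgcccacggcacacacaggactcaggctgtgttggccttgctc
Trim54: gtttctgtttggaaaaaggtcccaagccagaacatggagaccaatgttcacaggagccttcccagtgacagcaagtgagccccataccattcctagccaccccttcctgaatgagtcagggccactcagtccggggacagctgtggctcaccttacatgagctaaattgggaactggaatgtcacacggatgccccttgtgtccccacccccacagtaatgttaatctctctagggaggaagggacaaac
In Trim63 the capitals mark TGTTTAC, the FoxO core on the other strand, from 194 to 188 bases before the start. The short site TGTTCT stands directly before it, from 200 to 195 bases, and does not overlap it. Fbxo40 has 2 windows, and in the one shown the capitals mark a MEF2 match from 101 to 92 bases before its start. The other Fbxo40 window, before a start further along the gene, held no MEF2 match. The Trim54 window held neither a FoxO nor a MEF2 match. Among 32851 mouse promoter windows of the same length, 3.65% held the FoxO core, 3.19% the MEF2 motif, 19.0% the short glucocorticoid site and 0.00913% the full element. Of the 9 windows, 1 held the FoxO core, 1 the MEF2 motif, 4 the short glucocorticoid site and 0 the full element. The full element was searched as an exact string, so near matches were not counted. In Trim63 the letters tgaaca stand 3 bases before the short site, where the full element has AGAACA. A match is a run of letters and was not tested for binding.

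The first question was how much of each ligase transcript the muscle held. Levels are CPM, counts scaled to library size with TMM normalization, and between genes they are compared per kilobase of exon. The table's rows are whole genes, so the isoforms of a gene were not separated. Trim54 had the highest level, 165 to 198 CPM per kb over the 4 mice, followed by Fbxo40 with 84.5 to 94.6 CPM per kb. Fbxo32 (36.5 to 50.7 CPM per kb), Trim63 (38.3 to 43.7) and Nedd4 (38.0 to 42.3) came next. They could not be ordered by this length, since their ranges overlapped. Trim55 lay below these with 21.7 to 25.5 CPM per kb. Fbxo30 and Trim32 overlapped at 2.99 to 3.47 CPM per kb, and Cblb was lowest at 1.26 to 1.68 CPM per kb. With the longest transcript as the length in place of all exons, Nedd4 moved from rank 5 to rank 3 and Fbxo32 from rank 3 to rank 5. Ranks 1, 2, 4 and 6 to 9 kept their genes. The means of Nedd4, Trim63 and Fbxo32 were then 80.7, 61.3 and 42.8 CPM per kb. Neighbours in rank that did not overlap rose from 5 to 7 pairs, so the order of these genes depends on the length used.

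**Figure D1:**
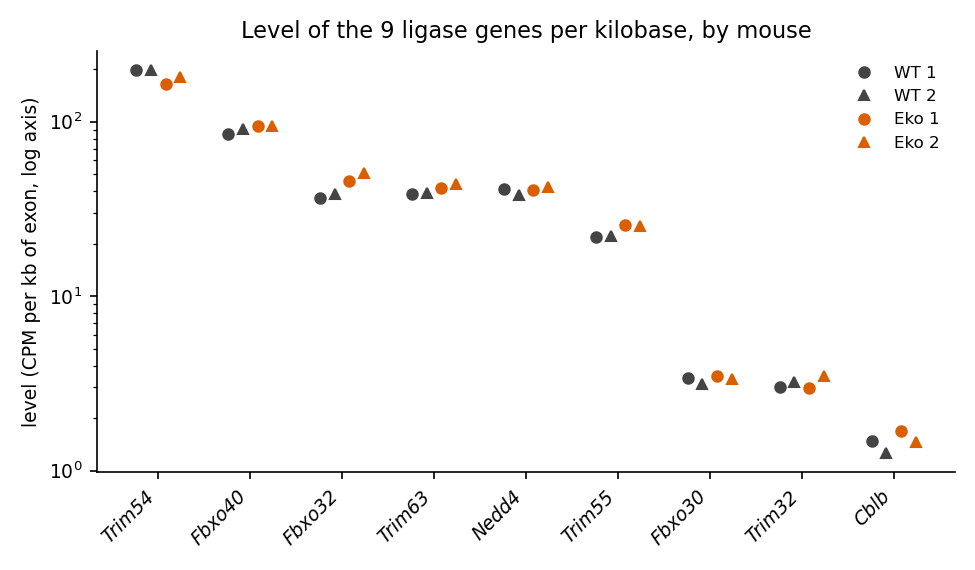
Level of each of the 9 ligase genes in the 4 mice, in CPM per kilobase of exon on a log axis, with genes in order of their mean. Circles and triangles are replicates 1 and 2, grey WT and orange Eko. Trim54 and Fbxo40 stand above the rest and Fbxo30, Trim32 and Cblb at or below 3.47 CPM per kb.

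The next question was whether the exon deletion moved these transcripts. None of the 9 genes passed edgeR's quasi-likelihood test at an adjusted p below 0.05, whereas 67 of all 16120 genes did (0.416%). At an unadjusted p below 0.05, 3 of the 9 genes passed, Fbxo32, Trim55 and Trim54, beside 1864 of all genes (11.6%). The 2 Eko mice lay on one side of both WT mice for 5 of the 9 genes, and the same held for 43.8% of all genes tested. By sign alone, 8 genes were higher in Eko and 1 was lower. Their log2 fold changes ran from -0.19 to 0.37 with a median of 0.11, and the median over all genes was -0.01. The 2 mice of a genotype are separate animals, and an exact permutation test of 2 against 2 mice cannot give a two-sided p below 0.333. Whole quadriceps was sequenced, so fewer cells of a type and less RNA per cell cannot be told apart.

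**Figure D2:**
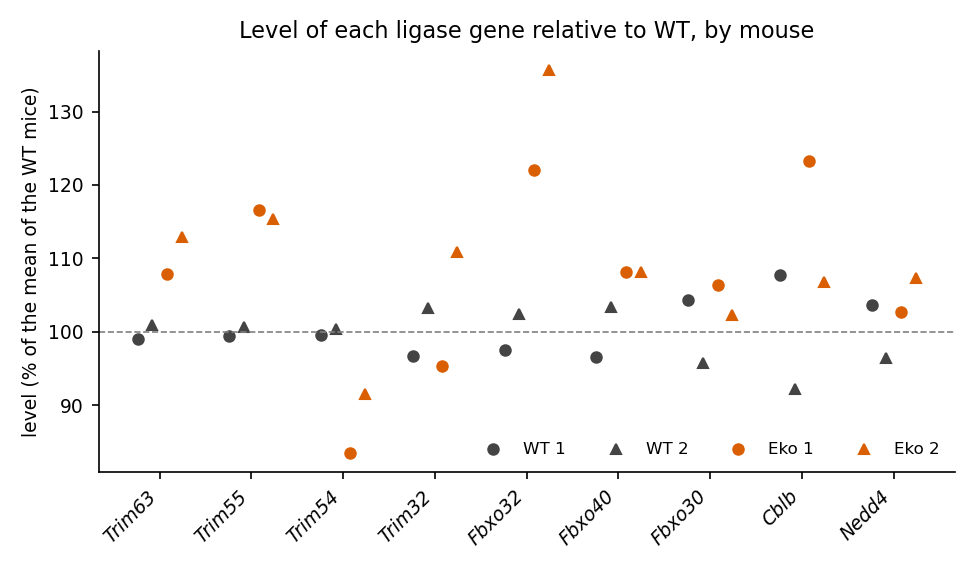
Level of each ligase gene in each mouse as a percentage of the mean of the 2 WT mice (dashed line at 100); the axis does not start at 0. Both Eko mice lie above both WT mice for Trim63, Trim55, Fbxo32 and Fbxo40, and below both for Trim54.

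Fbxo32 encodes an F-box protein, the substrate-binding part of an SCF ligase, which takes MyoD and the translation factor eIF3f as substrates. Its gene lies on chromosome 15 (58175879 to 58214932, GRCm38, minus strand). Fbxo32 stood at 255 and 267 CPM in WT mice and at 319 and 354 CPM in Eko mice. Both Eko mice were above both WT mice, by more than the WT mice differed from each other. The fitted difference was 28.9% (95% interval 13.4 to 46.5%), a log2 fold change of 0.37 ± 0.08 (SE, 2 mice per genotype), with an adjusted p of 0.162 in edgeR's quasi-likelihood test and an unadjusted p of 0.00229. This unadjusted p was the smallest of the 9 genes and rank 227 of all genes tested. The call depended on the test. DESeq2 gave an adjusted p of 0.0035 at a log2 fold change of 0.37, and it called 318 of the 13307 genes it adjusted (2.39%). The likelihood ratio test of edgeR gave an adjusted p of 0.0326 and called 1.94% of genes. Without a filter on low counts the adjusted p of Fbxo32 was 0.000574 and 3.25% of 24621 genes were called. By limma-voom, which called 0.354% of genes, Fbxo32 did not pass, and over all 14 alternatives its adjusted p ran from 0.000574 to 0.41 and passed in 4. Without Eko replicate 1 the log2 fold change was 0.45 with an adjusted p of 0.0423 in edgeR, the lone Eko mouse being assumed to vary like the others, and 1.22% of genes were called. The log2 fold change of Fbxo32 stayed between 0.29 and 0.45 under every alternative. Fbxo32 is overlapped on the opposite strand by Gm15943, and 4.16% of the 31-base words of its exons occur in Gm15943 or other genes. Gm15943 had 146 to 217 counts, against 19315 to 27458 for Fbxo32.

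Fbxo40 and Fbxo30 encode further F-box proteins. Fbxo40 takes part in the breakdown of the insulin receptor substrate IRS1 after IGF1 stimulation, and Fbxo30, also called MUSA1, is held down by BMP signalling. Fbxo40 measured 466 and 499 CPM in WT and 522 and 522 CPM in Eko. Both Eko mice were above both WT mice, but the WT mice differed by nearly as much as the genotypes. Its log2 fold change was 0.11 with an interval of -0.05 to 0.28 (adjusted p 0.583, edgeR). For Fbxo30 the levels were 17.7 and 16.2 CPM in WT and 18.0 and 17.3 CPM in Eko, which overlapped. Its log2 fold change was 0.06 with an interval of -0.13 to 0.26 (adjusted p 0.821, edgeR), and it was -0.02 after a correction for GC content.

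Trim63, Trim55 and Trim54 form the MuRF family (MuRF1, MuRF2 and MuRF3), RING-finger proteins that bind each other. MuRF1 binds titin at the M-band, and MuRF2 and MuRF3 bind microtubules. Trim63 had 109 and 111 CPM in WT mice and 119 and 124 CPM in Eko mice. Its log2 fold change was 0.14 with an interval of -0.01 to 0.30 (adjusted p 0.469, edgeR). For Trim55 the values were 57.8 and 58.5 CPM in WT and 67.7 and 67.1 CPM in Eko, with mice of a genotype within 1 CPM of each other. The difference was 16.0% (interval 4.41 to 28.9%), a log2 fold change of 0.21 ± 0.06 (SE), with an unadjusted p of 0.0126 and an adjusted p of 0.291 in edgeR. Trim54 went the other way, with 282 and 284 CPM in WT and 236 and 259 CPM in Eko. Both Eko mice lay below both WT mice, and the Eko mice differed from each other more than the WT mice did. The log2 fold change of Trim54 was -0.19 ± 0.07 (SE; interval -0.36 to -0.02), with an unadjusted p of 0.0328 and an adjusted p of 0.384 in edgeR. It was -0.11 without Eko replicate 1 (adjusted p 0.798, edgeR) and -0.26 without Eko replicate 2.

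The proportions of the MuRF genes were compared within each mouse, a measure that does not depend on the scaling between libraries. Trim54 made up 76.6 and 76.4% of the summed MuRF level per kb in WT mice and 71.0 and 72.4% in Eko mice. The share of Trim63 was 14.9 and 15.1% in WT and 18.0 and 17.5% in Eko, and that of Trim55 was 8.47 and 8.48% in WT and 10.99 and 10.1% in Eko. For all 3 genes the WT mice differed by less than 0.2 percentage points and the genotypes did not overlap. The count ratio of Trim63 to Trim54 was 0.386 and 0.390 in WT and 0.502 and 0.479 in Eko, 0.34 higher on the log2 scale. That of Trim55 to Trim54 was 0.205 and 0.206 in WT and 0.287 and 0.259 in Eko, 0.41 higher on the log2 scale. Between Trim63 and Trim55 the ratio was 1.89 and 1.90 in WT and 1.75 and 1.85 in Eko, so these genes kept closer proportions. The ratios were chosen after the levels were known and are given as a description, with no test.

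**Figure D3:**
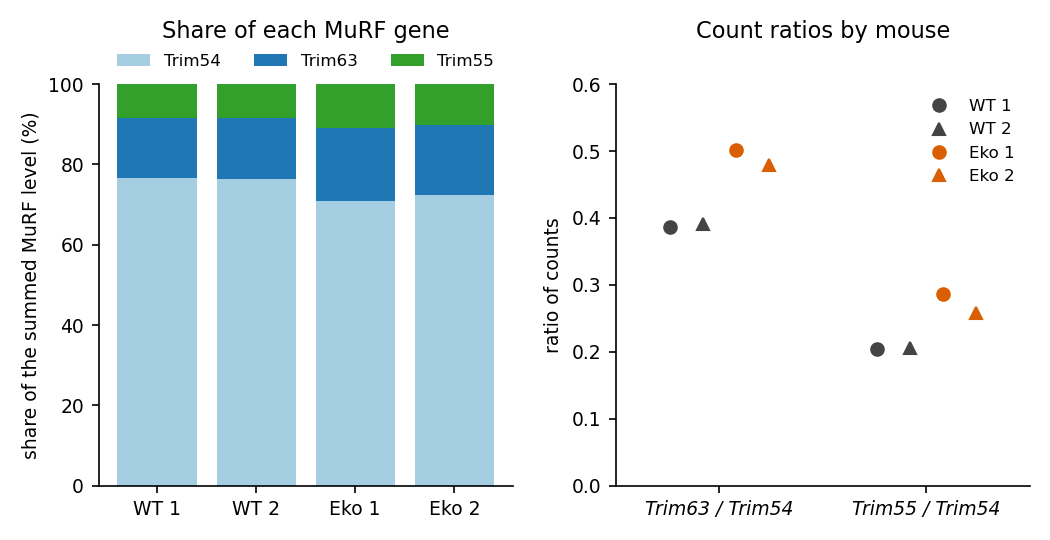
Left, share of Trim54, Trim63 and Trim55 in the summed MuRF level per kb of each mouse, in percent. Right, ratio of the counts of Trim63 and of Trim55 to those of Trim54 in each mouse. The Trim54 share is 76.4 to 76.6% in WT and 71.0 to 72.4% in Eko, and both ratios are higher in both Eko mice.

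Properties of the transcript itself were read beside the Trim54 value. GC content of the transcripts was related to the genotype difference over all genes (Spearman's rho of -0.214 between GC content and log2 fold change over 15606 genes, which share the same 4 libraries). Trim54 has the highest GC content of the 9 genes, 59.9%, where the 90th percentile of genes is 57.7%. The other 8 run from 38.2 to 52.4%. After correction of each library for its GC trend, chosen after the data were seen, rho was -0.0136. The log2 fold change was then -0.11 for Trim54, 0.16 for Trim63, 0.20 for Trim55 and 0.33 for Fbxo32. Transcript length was related to the genotype difference too (Spearman's rho of 0.188). By its longest transcript Trim54 is the shortest of the 9, with 1434 bases, and Fbxo32 the longest, with 6976. After a correction for length, also chosen after the data were seen, rho with length was 0.02. It gave log2 fold changes of -0.15 for Trim54, 0.18 for Trim63, 0.23 for Trim55 and 0.31 for Fbxo32. Trim54 is also overlapped on the other strand by Gm15469, and 21.1% of the 31-base words of its exons occur in Gm15469. Gm15469 had 21 to 48 counts against 18544 to 22999 for Trim54. The kit keeps strand, and the strand setting of the counting is not given in the sources used here. The parts of GC content and length in the Trim54 and Fbxo32 values were not tested further.

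**Figure D4:**
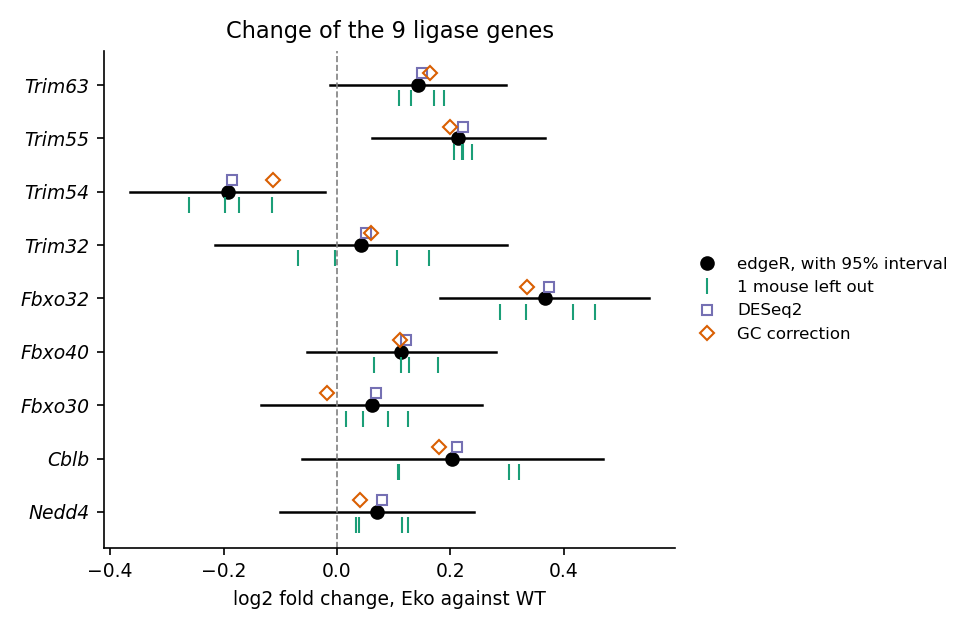
Log2 fold change of each ligase gene, Eko against WT, by edgeR (black circles with 95% intervals), by DESeq2 (squares), after GC correction (diamonds) and with each mouse left out (ticks). Fbxo32, Trim55 and Trim54 have intervals clear of 0. The leave-one-out ticks of Trim32 lie on both sides of 0, and the GC-corrected value of Fbxo30 is below 0.

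The remaining ligases were Trim32, Cblb and Nedd4. Trim32, mutated in a limb-girdle muscular dystrophy, targets desmin and thin filament proteins. Its levels of 9.78 and 10.4 CPM in WT and 9.64 and 11.2 CPM in Eko overlapped, and its log2 fold change was 0.04 with an interval of -0.22 to 0.30 (adjusted p 0.915, edgeR). Cblb, a ligase for IRS1 in unloaded muscle, measured 15.4 and 13.2 CPM in WT and 17.6 and 15.2 CPM in Eko. These ranges overlapped, and the interval of the log2 fold change was -0.06 to 0.47 (adjusted p 0.539, edgeR). Nedd4, a HECT-type ligase with Notch1 among its targets, measured 448 and 417 CPM in WT and 445 and 464 CPM in Eko. The interval of its log2 fold change was -0.10 to 0.24 (adjusted p 0.755, edgeR). The intervals of these 3 genes admit differences of up to 23.1% for Trim32, 38.4% for Cblb and 18.3% for Nedd4.

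The pathways that feed the ligases were read from 8 lists holding 187 genes, 185 of which were tested. Fkbp5, a co-chaperone of the glucocorticoid receptor and a direct target of it, was the 1 gene of these lists that passed, and it fell. It had 45.7 and 41.2 CPM in WT and 25.2 and 24.8 CPM in Eko, a log2 fold change of -0.80 ± 0.08 (SE) with an adjusted p of 0.0301 in edgeR. Fkbp5 also passed under all 14 alternatives. In the same list of 20 glucocorticoid and fasting genes, Cdkn1a, the cell cycle inhibitor p21, had 6.25 and 5.64 CPM in WT and 9.60 and 8.32 CPM in Eko (adjusted p 0.150, edgeR). Mt1, a metallothionein, had a log2 fold change of -0.75 and Sesn3, a FoxO target, one of 0.30, and neither passed. At an unadjusted p below 0.05 the list had 2 genes higher and 2 lower, and its median log2 fold change was -0.01. Of all 16120 genes, 830 were higher and 1034 lower at that p, beside which the counts of each list are to be read.

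Of the 25 genes of insulin, IGF and FoxO signalling, 0 passed edgeR's test, and 2 higher and 3 lower genes had an unadjusted p below 0.05. Igf1, the growth factor that keeps FoxO proteins out of the nucleus, measured 28.4 and 38.2 CPM in WT and 15.8 and 20.8 CPM in Eko. The groups did not overlap, the log2 fold change was -0.86 ± 0.17 (SE) and the adjusted p was 0.139 in edgeR, while 7 of 14 alternatives called it. Rps6kb1, the S6 kinase, had a log2 fold change of 0.27 (adjusted p 0.237, edgeR). Of the FoxO genes themselves, Foxo1 measured 30.8 and 51.5 CPM in WT and 26.5 and 38.5 CPM in Eko, which overlapped. Foxo3 measured 29.9 and 28.4 CPM in WT and 30.6 and 35.3 CPM in Eko, and Foxo4 135 and 150 CPM in WT and 159 and 160 CPM in Eko. Foxo6 measured 8.82 and 8.50 CPM in WT and 9.33 and 8.11 CPM in Eko. These FoxO genes did not pass, and they were added by name after their values were seen.

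Among 23 tested genes of myostatin and BMP signalling, 0 passed, and 3 higher and 3 lower genes had an unadjusted p below 0.05. The smallest p values belonged to the activin receptors Acvr1b and Acvr2a, with log2 fold changes of 0.31 and 0.29, and to the myostatin relative Gdf11 with 0.77. Gdf11 differed strongly between the WT mice, 17.5 and 27.7 CPM, against 41.0 and 36.0 CPM in Eko. With single mice left out its log2 fold change ran from 0.47 to 1.15. Among 20 NF-κB and cytokine genes, 0 passed, 3 lower genes had an unadjusted p below 0.05 and the median was -0.08. These were Relb at -0.49, the TWEAK receptor Tnfrsf12a at -0.52 and the kinase Ikbkb at -0.27 on the log2 scale.

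Further down the chain, 0 of 22 ubiquitin, E1, E2 and cullin genes passed, with the E2 enzymes Ube2g2 at -0.24 and Ube2e1 at 0.27 on the log2 scale. In a list of 31 other muscle ligases and deubiquitinases 0 passed, with 5 higher and 1 lower at an unadjusted p below 0.05. Among all 16120 genes, 830 were higher and 1034 lower at that p. Uchl1, a deubiquitinase best known from neurons, had a log2 fold change of -0.85 at 0.67 to 1.46 CPM, and the ligases Ubr1 and Wwp1 had 0.27 and 0.21. Among 30 substrates or proposed substrates of the ligases, 0 passed, and by sign 14 were higher and 16 lower. At an unadjusted p below 0.05, 1 was higher and 3 were lower. The 3 with the smallest p were the fast myosin heavy chains Myh2 and Myh1 and the Z-disc protein Actn2. Their log2 fold changes were -0.51, -0.44 and -0.52. DESeq2 called these 3 genes, each lower in Eko, among 318 of the 13307 genes it adjusted (2.39%). By limma-voom and after GC or length correction they did not pass. Without WT replicate 1 the log2 fold changes of Myh2, Myh1 and Actn2 were -0.57, -0.27 and -0.34. The creatine kinase Ckm, which MuRF1 binds, had 13003 and 14284 CPM in WT and 13323 and 14016 CPM in Eko. Of 15 tested denervation genes 0 passed, with Hdac4 at 0.19, Runx1 at -0.47 and the acetylcholine receptor subunit Chrne at 0.22 on the log2 scale. With single mice left out these ran from 0.11 to 0.29, from -0.70 to -0.27 and from 0.06 to 0.38.

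**Figure D5:**
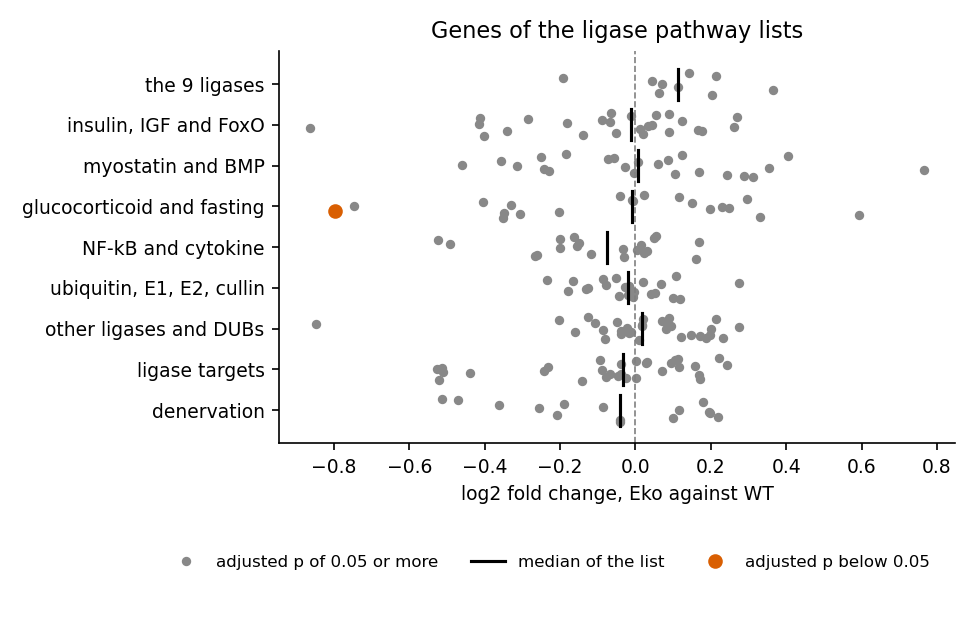
Log2 fold change, Eko against WT, of every tested gene of the 9 ligases and the 8 pathway lists, 1 point per gene, with the median of each list as a black bar. The single orange point is Fkbp5, at -0.80. The median of the ligases is 0.11 and those of the other lists run from -0.08 to 0.02.

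Marker genes were read as a check of the tissue. The 10 muscle fibre markers summed to 163706 and 170168 CPM in WT and 168934 and 177224 CPM in Eko, and 0 of them passed. Markers of other cells were scarce beside these. The 9 macrophage markers summed to 61.0 and 48.7 CPM in WT and 41.6 and 32.5 CPM in Eko, and 9 of 9 had lower fitted values in Eko, 6 of them at an unadjusted p below 0.05, with a median log2 fold change of -0.62. The 8 adipocyte markers summed to 1138 and 997 CPM in WT and 839 and 1005 CPM in Eko. Adipoq, at 9.87 and 4.83 CPM in WT and 4.86 and 2.01 CPM in Eko, was a small part of these sums. They therefore mostly reflect the other genes of that list. The median log2 fold change of the 8 markers was -0.72. At an unadjusted p below 0.05, 4 of 8 were lower, where 1034 of all 16120 genes were. The 7 Schwann cell markers summed to 44.5 and 47.1 CPM in WT and 49.2 and 58.1 CPM in Eko, with a median log2 fold change of 0.24 and 2 of 7 higher at an unadjusted p below 0.05. Of the fibroblast markers, 3 of 8 were lower at that p. Endothelial markers summed to 214 to 254 CPM, fibroblast markers to 356 to 458 CPM and satellite cell markers to 33.9 to 36.1 CPM over the 4 mice, with genotypes overlapping. In all these lists 0 genes passed edgeR's test, and no marker was at 0 counts in any library. The part of these cells in the ligase values was not tested. Mef2d itself measured 259 and 227 CPM in WT and 252 and 241 CPM in Eko, which does not check the genotype, since the row covers the whole gene and not the deleted exon.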

How the data were processed

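RNA-seq of quadriceps from 2 WT and 2 Mef2dα2 Eko mice was read from 1 table. The authors checked reads with FastQC, aligned them to mm10, for which the submitters' processing notes list STAR 2.6.1a, and estimated gene counts with RSEM. These expected counts were deposited without normalization. All values were whole, so rounding changed 0 of them. In R 4.3.3, genotypes were compared with edgeR 4.0.16 (TMM, default low-count filter, quasi-likelihood test, genotype as the sole term), with Benjamini-Hochberg adjustment over 16120 genes and a threshold of 0.05. Fold changes carry a prior count of 0.125. Depth was 72626757 to 85176059 counts, so that 3 counts correspond to 0.0348 to 0.0419 CPM, which covers counting error only.

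Alternatives were DESeq2 1.42.0, RLE and upper-quartile normalization, no filter, a filter of 1 CPM in 2 libraries, the likelihood ratio test, limma-voom (limma 3.58.1), a replicate block, each mouse left out, and corrections for GC content or length added after the data were seen. Exons, positions and GC content came from GENCODE on GRCm38, promoters from RefSeq. The models were tested on simulated data. Text names all 9 ligases, Mef2d, markers whose level is given, and of each pathway list every gene that passed and otherwise the 3 with the smallest p, except 2 genes that are not reported here, and the 3 genes nearest in pattern to Trim63 and to Fbxo32. The ligases and lists were chosen with earlier results of these data known.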

Additional observations from a re-analysis of the deposited data

How the results depend on the processing

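Of the 9 ligases, 0 passed in edgeR's quasi-likelihood test. The count was 1, Fbxo32 in each case, with DESeq2, without a filter on low counts and with the likelihood ratio test, and 0 to 1 with single mice left out. Calls over all genes rose from 67 to 318, 799 and 312 in these settings, and to between 99 and 299 with single mice left out. It stayed at 0 with the RLE, upper-quartile, 1 CPM, limma-voom, GC and length settings. Of the pathway genes, 1 passed. The count was 8 with DESeq2, 24 without a filter and 8 with the likelihood ratio test, and 4 to 8 with single mice left out. With the replicate number as a block, 0 ligases and 5 pathway genes passed, and 186 genes in all against 67. The paper describes the WT and Eko mice as littermates, but the labels do not say that a replicate number marks a litter or day. The differences between replicates 1 and 2 correlated between genotypes at r = 0.19 over 12133 genes with 2 pairs.

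With single mice left out, the log2 fold change of Trim32 ran from -0.069 (without Eko replicate 2) to 0.16 and was -0.0028 without WT replicate 1, and that of Fbxo30 was -0.018 after GC correction. The cause was not tested. The signs of the other 7 ligases held in all 14 alternatives.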

Other observations

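The genes with the pattern nearest to Fbxo32 over the 4 mice were named by their distance in log2 level, each gene centred on its own mean, among 6574 genes at 10 CPM or more. They were Ston2, an endocytic adaptor, Grk3, a G protein-coupled receptor kinase, and Cmya5, a large muscle protein of the costamere and Z-disc region. Cmya5 measured 4455 and 4711 CPM in WT and 5417 and 6008 CPM in Eko, and Ston2 measured 140 and 147 CPM in WT and 173 and 192 CPM in Eko. Within a distance of 0.1 lay 36 genes for Fbxo32 and 856 for Trim63. The distance was not scaled to the size of a gene's change. A gene that differs little between mice, such as Trim63, therefore lies near the many others that differ little. For Trim63 the nearest were Srp54a, Celsr2 and Cox11, at 74.9 and 76.9, 14.8 and 15.0, and 15.7 and 15.9 CPM in WT, and 82.1 and 85.5, 16.3 and 17.0, and 17.2 and 18.0 CPM in Eko. With 4 mice this likeness describes these libraries.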
